A study of Homo sapiens with 6 samples.

Results

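TC32 is a cell line from a Ewing sarcoma, a tumour of bone and soft tissue of the young. The comparison described here sets TC32 cells transfected with an siRNA against FLI1 (siFLI1, 2 libraries) against TC32 cells transfected with a control siRNA (siNeg, 2 libraries), with total RNA taken 48 h after transfection. Cells transfected in the same experiment with an siRNA against EWSR1 (siEWSR1, 2 libraries) are used only to show where the siFLI1 cells differed from them. All 3 groups are the same line at the same time, so the siRNA is the one agent that differs, and no untransfected group is used here. The labels do not say that libraries of a group came from separate cultures, so p-values measure the spread between these libraries, which may be technical. Each library holds an estimated expression level per gene in FPKM, the fragments per kilobase of transcript, scaled to the mapped fragments of the library. The genes described are those with 1 FPKM or more in at least 2 of the 4 siFLI1 and siNeg libraries, which are 12879 of the 26931 gene symbols. Of these, 11631 were at 1 FPKM or more in all 4 libraries, 716 passed the limit through the siFLI1 libraries alone and 195 through the siNeg libraries alone. A gene that passed through only 1 group had to differ in level, so counts of tested genes are not counts of whole families.

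Ewing sarcoma cells carry a chromosome translocation that fuses the front of EWSR1, the gene of an RNA-binding protein, to the end of FLI1, the gene of an ETS family transcription factor. The fusion protein binds DNA at ETS sites and at repeats of GGAA, where it activates a set of genes, and it is known to hold other genes down, many of them genes of mesenchymal cells. In a cell with this fusion, an siRNA against either partner can reach the fusion transcript. The normal allele of EWSR1 is also transcribed, whereas normal FLI1 is known chiefly from blood and endothelial cells.

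The level of the targeted gene was examined first. With siNeg, FLI1 was at 10.9 and 10.9 FPKM, and with siFLI1 at 8.98 and 8.56 FPKM. Both siFLI1 libraries lay below both siNeg libraries, and the log2 change, siFLI1 minus siNeg on the log2(FPKM + 0.5) scale, was -0.29 ± 0.06 (standard error, SE; adjusted p = 0.0042, limma with Benjamini-Hochberg adjustment over all tested genes). Such a lack of overlap, in one direction or the other, was found for 10942 of the 12879 tested genes. FLI1 stood at 10.4 and 10.6 FPKM in the siEWSR1 libraries. EWSR1 was at 46.5 and 47.2 FPKM with siNeg and 51.2 and 50.2 FPKM with siFLI1, a difference that did not pass the threshold (log2 change 0.11 ± 0.06, adjusted p = 0.11), and at 34.6 and 32.3 FPKM with siEWSR1. Whether these values include fusion transcripts, and which part of FLI1 the siRNA reaches, the sources used here do not say. The FLI1 locus, chromosome 11 from 128556430 to 128683162 (hg19), also overlaps the RNA genes SENCR and LOC101929538, whose reads cannot be told apart from those of FLI1 without strand.

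The label of the cells was checked against markers of Ewing sarcoma. Of 10 markers, 8 were at 1 FPKM or more in every siNeg and siFLI1 library, among them CD99 at 303 and 308 FPKM with siNeg and 289 and 272 FPKM with siFLI1. 7 of the 8 were called lower with siFLI1. In bulk RNA, fewer cells of a kind and less RNA per cell cannot be told apart. PAX7 was at 0.42 and 0.459 FPKM with siNeg and 0.193 and 0.206 FPKM with siFLI1, and FATE1 was under 0.1 FPKM in all 4. Of 8 blood cell markers, CD3E and HBB were at 0 in all 4 libraries and PTPRC, LYZ and SPI1 under 0.1 FPKM, and CD68 alone was tested, at 3.76 and 3.03 FPKM with siNeg and 4.3 and 4.06 FPKM with siFLI1, and not called. Of 7 endothelial markers, EGFL7 alone was tested and it was not called. The bounds deposited around each FPKM value, read as counting error, imply 15159073 to 16298374 assigned fragments a library, and loci shorter than 300 bases held 32.5% to 48.6% of the summed FPKM of these 4 libraries. The log2 levels of the tested genes had a correlation of 0.983 for the siNeg pair, 0.981 for the siFLI1 pair and 0.896 to 0.904 across groups (Pearson's r across genes, which are not independent replicates). The median absolute log2 difference between libraries of a group was 0.076 for siNeg and 0.080 for siFLI1.

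The change with siFLI1 was broad. A gene is called here when its adjusted p was under 0.05, and 2-fold refers to the fitted difference on the log2(FPKM + 0.5) scale, which understates the change of genes at low levels. Of the 12879 genes, 4618 were called higher (35.9%) and 3877 lower (30.1%), and 4384 were not called. The called genes that differed at least 2-fold were 1198 higher (9.30%) and 599 lower (4.65%). These shares are the background for every count of a gene group given here. The siFLI1 and siNeg libraries did not overlap, in one direction or the other, for 10942 of the 12879 genes. After quantile normalization, which gives every library the same distribution of levels, the 2-fold genes split into 869 higher and 818 lower, whereas median-ratio scaling left 1187 higher and 608 lower. The median log2 change of all tested genes was 0.036.

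The counts were also taken by level of expression. Genes that passed the 1 FPKM limit through 1 group alone had to differ, since the other group lay under it in both libraries. Some of them, such as H19 described below, had a high mean. The limit therefore sets the shares in part, and not at low levels alone. Among the 1590 genes with a mean of 0.5 to 2 FPKM over the 4 libraries, 22.6% were at least 2-fold higher and 3.71% at least 2-fold lower. Among the 2759 genes with a mean of 20 to 100 FPKM, the shares were 4.89% higher and 7.14% lower, and among the 510 genes above 100 FPKM they were 4.71% and 6.67%. By kind of gene, 1111 of 11779 protein-coding genes and 50 of 480 long noncoding RNA genes were at least 2-fold higher.

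**Figure D1:**
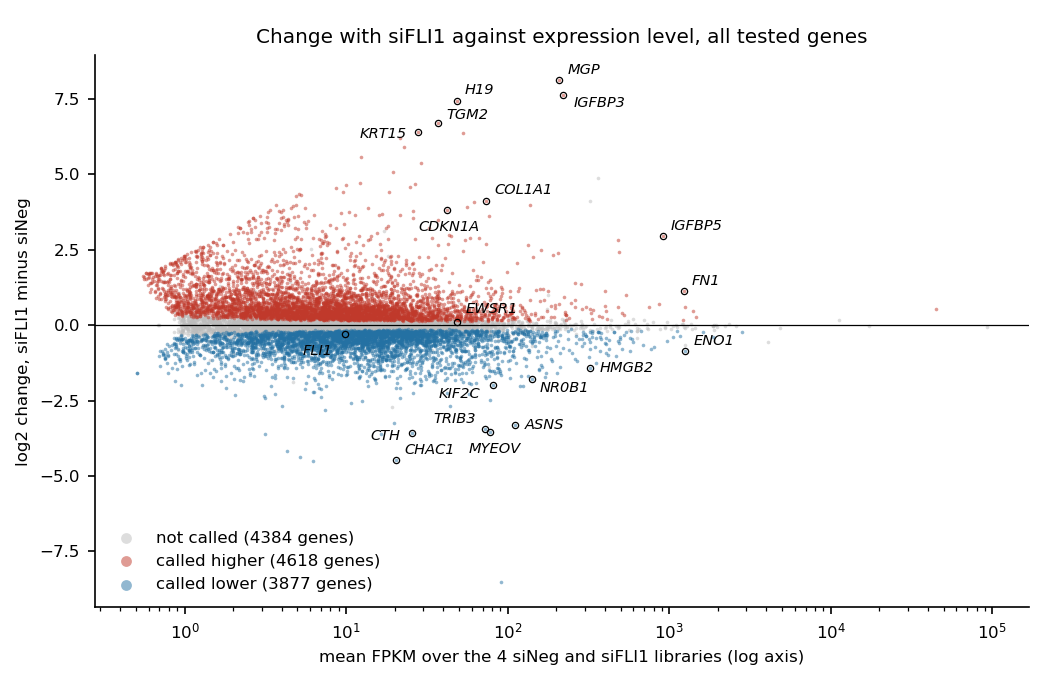
Log2 change, siFLI1 minus siNeg on the log2(FPKM + 0.5) scale (vertical axis), against the mean FPKM of the 4 siNeg and siFLI1 libraries (horizontal log axis) for the 12879 tested genes, with 4618 called higher in red, 3877 called lower in blue and 4384 not called in grey. MGP and IGFBP3 lie at the top, with log2 changes of 8.12 and 7.64, and CHAC1 among the lowest, at -4.46.

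Among the largest rises were genes of secreted and matrix proteins at a low level in the control cells. MGP, matrix Gla protein, an inhibitor of calcification, was at 0.898 and 1.1 FPKM with siNeg and at 403 and 429 FPKM in the siFLI1 libraries (log2 change 8.12 ± 0.11, adjusted p = 1.4e-07). IGFBP3, a carrier of insulin-like growth factors, went from 1.74 and 1.69 FPKM to 425 and 456 FPKM (log2 change 7.64 ± 0.07). H19, an imprinted noncoding RNA, was at 0.042 and 0.0695 FPKM with siNeg and 88.9 and 104 FPKM with siFLI1 (log2 change 7.45 ± 0.09). In these 3 genes the 2 libraries of each group lay close together. The rule that picked them took genes whose groups did not overlap, so the distance from the other group was fixed by the choice. The hg19 loci are chromosome 12 from 15034115 to 15038853 for MGP, chromosome 7 from 45951844 to 45960871 for IGFBP3 and chromosome 11 from 2016406 to 2022696 for H19, which overlaps HOTS and MIR675. TGM2, a transglutaminase that cross-links proteins, rose from 0.254 and 0.186 to 68.7 and 79.4 FPKM. KRT15, a keratin of basal epithelial cells, rose from 0.193 and 0.138 to 55.4 and 56.1 FPKM, and SULF2, an enzyme that trims sulfate from heparan sulfate, from 0.704 and 0.867 to 99.4 and 112 FPKM. The remaining genes among the 15 largest rises were ART5, TIMP3, COLEC12, DKK1, MIR503HG, CD52, MFAP4, GPX3 and the small nucleolar RNA SNORA63, whose call was lost without siFLI1 1 or siFLI1 2 (adjusted p = 0.0545 and 0.0664, limma).

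13 genes were at or under 0.1 FPKM in both siNeg libraries and at or over 5 FPKM in both siFLI1 libraries. Besides H19 they included COLEC12, a scavenger receptor, at 0.0397 and 0.00938 against 22.3 and 26.9 FPKM, and THBS1, the matrix protein thrombospondin-1, at 0.0217 and 0.0117 against 6.38 and 7.08 FPKM. C3, the central complement component, was at 0.049 and 0.0446 against 10.9 and 9.98 FPKM. The reverse pattern was seen for 4 genes, all of them short loci of small RNAs (MIR3663, SNORA65, SNORA71A and SNORA101B). SNORA71A was not called without siNeg 2 (adjusted p = 0.0594, limma). The largest gains in FPKM itself were in IGFBP5, another carrier of insulin-like growth factors, from 200.5 and 216 to 1529.9 and 1696 FPKM, and FN1, fibronectin, from 776 and 759.9 to 1699 and 1687 FPKM. TGFBI, a matrix protein induced by TGF-beta, gained from 117 and 119 to 811 and 872 FPKM.

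Genes of the extracellular matrix were higher across most families. Of 31 collagen genes, 21 were tested, of which 7 were under 1 FPKM in both siNeg libraries. 18 of the 21 were called higher, 17 of them at least 2-fold, and none lower, with a median log2 change of 1.68 beside 0.036 for all genes. After quantile normalization 17 were higher and 1 lower, and 1 was also lower with other variance models or the replicate block. With no filter on low values, 24 of 30 were higher and 2 lower. COL11A1, COL27A1 and COL13A1 were not called. Among fibrillar collagens, COL1A1, the main chain of bone and skin collagen, rose from 6.9 and 8.09 to 134 and 144 FPKM (log2 change 4.13 ± 0.08). COL1A2 did not reach the level limit, at 0.0293 and 0.0352 against 0.889 and 0.696 FPKM. COL3A1, the most abundant collagen in these cells, rose from 154 and 150.1 to 794 and 862 FPKM (log2 change 2.44 ± 0.07), and COL5A1 from 14.5 and 16.3 to 109.8 and 124 FPKM. Of the basement membrane collagens, COL4A1 rose from 6.89 and 7.18 to 22.7 and 24.2 FPKM and COL4A5 from 0.138 and 0.158 to 2.62 and 2.85 FPKM. COL7A1, which forms anchoring fibrils under epithelia, rose from 0.366 and 0.41 to 19.7 and 17.6 FPKM and COL6A2, of the beaded collagen VI, from 7.42 and 7.88 to 59.1 and 61.8 FPKM. The summed FPKM of the collagen list was 268 and 275 in the siNeg libraries and 1402 and 1511 in the siFLI1 libraries.

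Matrix glycoproteins and proteoglycans moved likewise. Of 39 tested of 53 listed, with 5 under 1 FPKM in both siNeg libraries, 32 were called higher, 26 of them at least 2-fold, and GPC4, LAMA3 and FBLN5 lower (median log2 change 1.31). The laminin chain LAMA4 rose from 2.79 and 3.38 to 47.8 and 50.6 FPKM, whereas the epithelial laminin chain LAMA3 fell from 3.44 and 3.2 to 2.07 and 1.81 FPKM. MFAP4, a microfibril protein, rose from 1.59 and 1.5 to 49.7 and 54.7 FPKM, and the proteoglycan BGN, biglycan, from 19.2 and 19.4 to 122 and 132 FPKM. Enzymes that act on collagen outside the cell rose, while those that hydroxylate it inside the cell were mixed. Of 9 tested processing and cross-linking enzymes, 2 of them under 1 FPKM in both siNeg libraries, 7 were called higher and none lower. LOXL2 was at 0.938 and 1.11 against 14.8 and 15 FPKM. BMP1, the procollagen C-proteinase, was at 5.74 and 6.19 against 28.2 and 29.1 FPKM. LOX and LOXL3 were not called. Among 11 hydroxylases and chaperones, P4HA2, P4HB, SERPINH1, PPIB and COLGALT1 were higher and P4HA1, PLOD2 and COLGALT2 lower. The call of PLOD2 was lost without siNeg 1, siNeg 2 or siFLI1 2 (adjusted p = 0.0615 to 0.104, limma). P4HA1, a prolyl hydroxylase subunit, fell from 42 and 43.7 to 20.3 and 19.7 FPKM (log2 change -1.08 ± 0.14).

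Protease inhibitors rose and the metalloproteases that cut matrix were divided. Of 14 tested inhibitors, 2 of them under 1 FPKM in both siNeg libraries, 11 were called higher and none lower, led by TIMP3, an inhibitor of matrix metalloproteases, from 0.323 and 0.213 to 41.9 and 48.6 FPKM. Of 16 tested metalloproteases, MMP2, MMP11, MMP14, ADAM19 and ADAMTS1 were higher and MMP9, ADAM15 and ADAMTS4 lower. MMP14, which activates MMP2 at the cell surface, rose from 26.2 and 25.9 to 110.1 and 117 FPKM, and MMP9 fell from 2.83 and 3.25 to 1.65 and 1.06 FPKM. The plasminogen activators PLAU (4.65 and 4.49 to 28.7 and 27.8 FPKM) and PLAT (0.177 and 0.27 to 6.19 and 6.75 FPKM) rose while PLAUR, the receptor of PLAU, fell from 7.98 and 8.89 to 5.03 and 4.61 FPKM.

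Most carriers of insulin-like growth factors rose. Ewing sarcoma cells are known to depend on the IGF1 receptor. Of 10 tested binding proteins and proteases of the IGF axis, 7 were called higher, all at least 2-fold, and PAPPA and STC2 lower (median log2 change 2.05). IGFBP6 was at 4 and 2.15 against 31.6 and 32.6 FPKM and IGFBP2 at 351 and 365 against 695 and 756 FPKM. PAPPA, the protease that releases IGF from IGFBP4, fell from 23.1 and 21.2 to 5.84 and 4.37 FPKM, and STC2, an inhibitor of PAPPA, from 10.9 and 10.2 to 1.99 and 1.79 FPKM. IGF1R rose by a small amount, from 14.3 and 14.3 to 17.9 and 18.3 FPKM (log2 change 0.33 ± 0.05, adjusted p = 0.0017). IGF1 and INSR were not called, and IGF2 did not reach the level limit. Among 13 tested imprinted genes, 3 of them under 1 FPKM in both siNeg libraries, 9 were higher and PEG10 lower. MEG3, a maternally expressed RNA, was at 2.5 and 2.27 against 23.1 and 20.6 FPKM.

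The calcium-binding S100 proteins rose without exception among those tested. All 9 tested of 11 listed, 1 of them under 1 FPKM in both siNeg libraries, were called higher. S100A2 was at 1.64 and 1.37 against 12.2 and 13 FPKM and S100A16 at 2.32 and 1.93 against 11.7 and 12.1 FPKM. S100A4 was at 17.2 and 16.8 against 53.1 and 50.1 FPKM. 7 of the 9 tested annexins rose, with 1 of the 9 under 1 FPKM in both siNeg libraries. ANXA1, the most abundant, fell from 1268 and 1139.6 to 913 and 922 FPKM (log2 change -0.39 ± 0.08). ANXA3 was also called lower, but not without the first siNeg or the first siFLI1 library (adjusted p = 0.0678 and 0.0849, limma).

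Genes of the actin cytoskeleton rose moderately. The SRF and YAP pathways adjust transcription to actin assembly and cell shape. Of 57 tested genes of contractile proteins and these pathways, 39 were called higher and 9 lower, with a median log2 change of 0.46. The 57 included 2 that were under 1 FPKM in both siNeg libraries. The tropomyosin gene TPM1 rose from 12.9 and 13.3 to 94.9 and 95.4 FPKM (log2 change 2.82 ± 0.05), and TAGLN, transgelin, from 9.18 and 11.1 to 37.7 and 40.5 FPKM. ACTB, the cytoplasmic beta-actin gene, rose from 636 and 694 to 1062 and 1079 FPKM (log2 change 0.69 ± 0.06). The SRF cofactor MKL1 was at 3.62 and 3.6 against 7.72 and 7.96 FPKM and the YAP partner TEAD3 at 6.07 and 6.47 against 14 and 14.5 FPKM, while TEAD4 fell from 14.4 and 14.2 to 8.46 and 8.54 FPKM. Integrins, the receptors that link matrix to actin, were split, with ITGA3, ITGA11, ITGAV, ITGB1 and ITGB4 higher and ITGA5, ITGA6, ITGA7, ITGB2 and ITGB5 lower among 12 tested. The 12 included 2 that were under 1 FPKM in both siNeg libraries. ITGA3 rose from 1.7 and 1.67 to 12.8 and 15.2 FPKM and ITGB2, a leukocyte integrin chain, fell from 171 and 179 to 99.5 and 90.3 FPKM. The median of the integrin list (log2 change 0.13) changed sign to -0.14 under quantile normalization and to -0.25 when genes with a mean under 5 FPKM were left out. ITGB4 was not called after quantile normalization (adjusted p = 0.0701, limma), and 3 integrins were lower in place of 5 without siNeg 1, siNeg 2 or siFLI1 2.

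Transcription factors of mesenchymal tissue were among the genes that rose. Of 27 tested, of which 6 were under 1 FPKM in both siNeg libraries, 16 were called higher and 6 lower, and 3 lower without siNeg 1 or siFLI1 1. PRRX1, a factor of limb and connective tissue mesenchyme, rose from 0.46 and 0.54 to 10.9 and 13.2 FPKM (log2 change 3.65 ± 0.12), and SNAI2, a factor of epithelial-mesenchymal transition, from 0.669 and 0.533 to 8.33 and 10.7 FPKM. CEBPB fell from 34 and 35.7 to 13.8 and 11.5 FPKM, and the homeobox factor DLX5, active in bone formation, from 54.6 and 57.8 to 29.4 and 23.4 FPKM. RUNX2, the main factor of osteoblasts, was not called, at 1.69 and 1.9 against 1.85 and 2.16 FPKM.

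Several defining markers of mature mesenchymal lineages were at or near 0, and others rose. For osteoblasts, IBSP and DMP1 were at 0 and SP7 and SPP1 under 0.1 FPKM in all 4 libraries, and the summed level of the 8 markers went from 10.1 and 11.4 to 138 and 147 FPKM, almost all of it COL1A1. For chondrocytes, ACAN, COL2A1, COL9A1 and HAPLN1 were under 0.1 FPKM, while the 2 tested markers were called higher, SOX9 at 2.24 and 1.98 against 5.6 and 6 FPKM and COMP at 0.068 and 0.0611 against 1.58 and 2.31 FPKM, and the summed level of the 7 markers was 2.41 and 2.15 FPKM with siNeg and 7.42 and 8.61 FPKM with siFLI1. For adipocytes, PPARG and ADIPOQ were under 0.1 FPKM, and the sum of the 7 markers, 0.496 and 0.573 against 8.05 and 9.98 FPKM, was mostly CEBPA. For skeletal muscle, MYOD1, MYOG and MYF5 were under 0.1 FPKM and DES alone was tested, at 0.527 and 0.524 against 8.7 and 9.61 FPKM. Of 9 fibroblast and mesenchymal stromal markers, 7 were tested, of which 6 were higher and THY1 lower, with sums of 205 and 199 against 883 and 956 FPKM, mostly COL3A1. Of 6 smooth muscle markers, ACTA2, CNN1, DES and LMOD1 were tested and higher, with sums of 38.4 and 41.5 against 87.0 and 93.0 FPKM. MYH11 and MYOCD did not reach the level limit. MYH11 was at 0.0619 and 0.0712 against 0.13 and 0.218 FPKM and MYOCD at 0.0186 and 0.01 against 0.178 and 0.265 FPKM. COMP, CEBPA, DES, PDGFRA, PRRX1, CNN1 and LMOD1 were under 1 FPKM in both siNeg libraries. They passed the limit through siFLI1 alone, so they had to be higher. The part of these markers in the other results was not tested.

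Signalling genes changed at several levels. Inhibitors that ERK signalling induces as feedback rose, with 11 of 13 tested higher, 3 of the 13 under 1 FPKM in both siNeg libraries, and SPRED2 lower (median log2 change 1.03). SPRY1, an inhibitor of receptor tyrosine kinase signalling, went from 0.225 and 0.291 to 5.6 and 5.45 FPKM and SPRY2 from 2.7 and 2.09 to 7.61 and 8.29 FPKM. Of 10 tested AP-1 factors, which act downstream of ERK and JNK, JUNB alone was higher, at 4.58 and 3.54 against 32 and 32.4 FPKM, and FOS, ATF3 and MAFK were lower. Among 20 tested growth factor receptors, 2 of them under 1 FPKM in both siNeg libraries, 11 rose and 7 fell. The PDGF receptor PDGFRA rose from 0.331 and 0.315 to 8.62 and 11 FPKM and FGFR2, a fibroblast growth factor receptor, from 9.79 and 9.9 to 62.6 and 65.8 FPKM. DDR2, a receptor for fibrillar collagen, fell from 78.1 and 68.1 to 26.4 and 25.8 FPKM, and NTRK2, the BDNF receptor, from 15.9 and 14.3 to 5.49 and 5.38 FPKM.

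In the TGF-beta and BMP pathway 23 of 43 tested genes were higher and 8 lower, with 4 of the 43 under 1 FPKM in both siNeg libraries. Those counts were 21 and 14 after quantile normalization, and 20 and 5 without the first siNeg library. The ligand TGFB2 rose from 0.525 and 0.607 to 10.4 and 11.9 FPKM, the receptor TGFBR2 from 4.97 and 4.88 to 19.3 and 22 FPKM and the latent TGF-beta binding protein LTBP1 from 0.498 and 0.71 to 10.2 and 11.3 FPKM. ID3, a target of BMP signalling, rose from 36.1 and 36.1 to 221 and 239 FPKM, while TGIF1, a repressor of SMAD-driven transcription, fell from 89.3 and 86.1 to 37.9 and 37.1 FPKM. In the WNT pathway, 18 of 36 tested were higher and 6 lower, with 5 of the 36 under that level in both siNeg libraries, and after quantile normalization 12 were higher and 10 lower. The secreted inhibitors were divided, with DKK1 (0.971 and 0.806 to 55.3 and 59.1 FPKM), DKK3 and SFRP1 higher and DKK2 (6.96 and 7.33 to 3.3 and 3.52 FPKM), SFRP2 and FRZB lower. TCF7L2, a nuclear mediator, rose from 4.81 and 4.94 to 24.7 and 27.2 FPKM, and LGR5, a receptor of R-spondins, fell from 19.2 and 18.8 to 11.5 and 9.36 FPKM. In the Notch pathway, with 2 of 22 tested genes under 1 FPKM in both siNeg libraries, 11 were higher and DNER, RBPJ and HES6 lower. The fringe LFNG was at 0.206 and 0.266 against 5.43 and 5.98 FPKM and the target HEY1 at 5.02 and 5.94 against 25.7 and 29.6 FPKM. HES6 was no longer called when any 1 of the 4 libraries was left out (adjusted p = 0.0634 to 0.2, limma).

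Guidance cues and cell contacts held genes of both directions. Of 13 tested semaphorins, 2 of them under 1 FPKM in both siNeg libraries, 9 were higher and SEMA3A and SEMA4A lower. The 13 had a median log2 change of 1.26, led by SEMA5B, at 0.0698 and 0.0838 against 5.99 and 6.81 FPKM. 11 of 13 tested guidance receptors were higher and ROBO1 and DCC lower, with 1 of the 13 under 1 FPKM in both siNeg libraries. The semaphorin receptor NRP1 was at 1.17 and 1.39 against 14.7 and 17.3 FPKM. The netrin receptor DCC fell from 8.36 and 7.63 to 2.8 and 2.68 FPKM. Among cadherins, CDH11, a cadherin of mesenchymal and bone cells, rose from 13.7 and 14.3 to 62.6 and 72.9 FPKM, CDH3 from 0.963 and 1.19 to 12.4 and 13.9 FPKM, and CDH10 fell from 9.52 and 9.2 to 1.94 and 1.66 FPKM. CDH2, N-cadherin, was not called. Among cytokines, CXCL12 rose from 9.15 and 9.71 to 71.3 and 84.4 FPKM and its receptor CXCR4 fell from 74.6 and 69.3 to 35.4 and 27.7 FPKM.

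Most lysosomal genes rose. Of 35 tested hydrolases, 28 were called higher, 14 of them at least 2-fold, and GLA and SMPD1 lower (median log2 change 0.91). The 35 included 2 that were under 1 FPKM in both siNeg libraries. CTSD, the protease cathepsin D, rose from 42.1 and 47.6 to 144 and 161 FPKM, and LAMP1, a membrane protein of lysosomes, from 22.1 and 22.7 to 46.7 and 51.1 FPKM. SMPD1, the acid sphingomyelinase, fell from 61.5 and 54.1 to 25.2 and 25.4 FPKM. Of 15 subunits of the proton pump, 10 were higher and ATP6V1F lower. TFEB, a transcription factor of lysosomal genes, rose from 0.845 and 0.983 to 2.96 and 2.7 FPKM.

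Interferon-stimulated genes rose, most of them by less than 2-fold. Of 26 tested of 33 listed, 4 of them under 1 FPKM in both siNeg libraries, 20 were called higher, 8 of them at least 2-fold, and IFITM1 and USP18 lower (median log2 change 0.59). IRF1, a factor of the interferon response, was at 0.896 and 0.907 against 4.11 and 3.59 FPKM, IRF9 at 3.58 and 3.2 against 10.008 and 9.11 FPKM and IFI6 at 7.44 and 7.74 against 20.7 and 22.6 FPKM (log2 change 1.45 ± 0.06). Antigen presentation was mixed, with 7 of 15 higher and B2M and TAP2 lower. The factors of the response bind repeats of GAAA. A pair of GAAA with any 2 bases between them was searched on both strands of RefSeq promoters (GRCh38.p14, 250 bases before to 50 after the gene's start). Of 33 promoters in the interferon and antigen presentation list, 18 (54.5%) held the motif, beside 2.82% of 10115 promoters of tested genes. It was in 3.67% of promoters from genes at least 2-fold higher and in 2.46% of those at least 2-fold lower. Here and below, a match describes the letters of the window and is not a shown binding site or a cause of the change. The promoter of IFI6 is shown because it holds the motif in 3 places, in capitals, which begin 156, 115 and 93 bases before the start (chr1:27672143-27672442, minus strand of GRCh38.p14, written on the gene's strand).
IFI6: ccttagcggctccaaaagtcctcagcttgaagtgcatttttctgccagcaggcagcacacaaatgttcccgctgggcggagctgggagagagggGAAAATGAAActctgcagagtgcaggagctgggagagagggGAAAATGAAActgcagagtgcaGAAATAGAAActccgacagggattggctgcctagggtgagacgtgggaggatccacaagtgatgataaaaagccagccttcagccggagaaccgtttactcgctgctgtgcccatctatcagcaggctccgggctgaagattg

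Genes lower in the siFLI1 cells included known targets that the fusion activates. Of 40 tested of 45 genes listed as fusion-activated from general knowledge, 28 were called lower, 13 of them at least 2-fold, and TCF4, EGR2, E2F3, LINGO1 and ENPP1 higher (median log2 change -0.88). The 5 higher became 3 without siNeg 2 or siFLI1 2, where EGR2 was not called (adjusted p = 0.144 and 0.138, limma). NR0B1, a nuclear receptor and a well known target of the fusion, fell from 204 and 234 to 69 and 56.4 FPKM (log2 change -1.80 ± 0.22, adjusted p = 0.00045). ID2, an inhibitor of differentiation, fell from 271 and 254 to 119 and 111 FPKM, and CCK, the peptide cholecystokinin, from 60.6 and 53.5 to 16.2 and 14.3 FPKM. NKX2-2 was at 27.4 and 31.5 against 18 and 16.7 FPKM and STEAP1 at 28.9 and 27.9 against 14 and 14.2 FPKM. In each of these genes both siFLI1 libraries lay below both siNeg libraries. Groups that did not overlap, in one direction or the other, were found for 10942 of the 12879 tested genes, so this does not set these genes apart. Promoters with GGAAGGAA, on either strand, made up 3.30% of all 10115 promoters, 2.90% of 448 from genes at least 2-fold lower and 3.34% of 899 from genes at least 2-fold higher. A run of 3 GGAA, which contains the shorter motif, was in 6 of the 10115 promoters and in none of the 2-fold groups. These windows end 250 bases before the start and hold no distal elements.

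**Figure D2:**
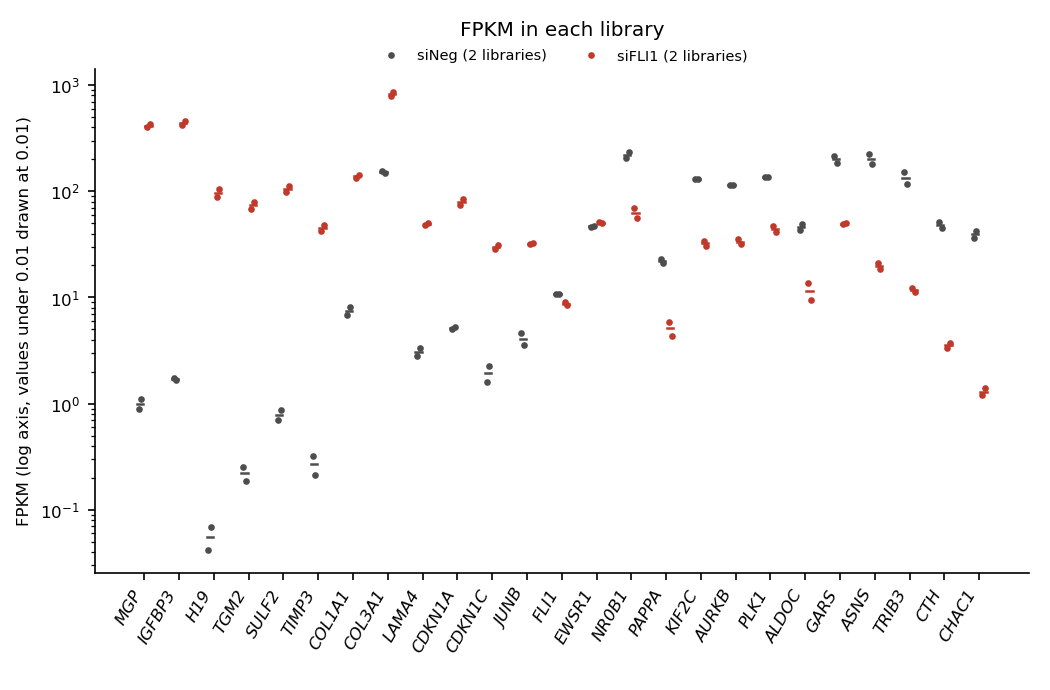
FPKM (vertical log axis) of 25 named genes in each siNeg library (dark points) and each siFLI1 library (red points), with a dash at the mean of each group. From MGP to JUNB the siFLI1 libraries lie above the siNeg libraries, FLI1 and EWSR1 differ little, and from NR0B1 to CHAC1 the siFLI1 libraries lie below.

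Among the 15 largest falls were genes of amino acid synthesis and of the integrated stress response. ATF4 is the transcription factor of that response, made when amino acids are short or the endoplasmic reticulum is under stress, and it drives genes that make, import and charge amino acids. Of 10 tested targets in the list, 9 were called lower and GDF15 higher (median log2 change -1.44). CHAC1, which degrades glutathione, fell from 36 and 42.4 to 1.2 and 1.4 FPKM (log2 change -4.46 ± 0.12, adjusted p = 1.1e-06). ASNS, asparagine synthetase, fell from 223 and 180.3 to 21 and 18.5 FPKM (log2 change -3.32 ± 0.12), and TRIB3, a pseudokinase, from 151 and 117 to 12.2 and 11.3 FPKM (log2 change -3.45 ± 0.16). The 2 siNeg libraries differed from each other in these genes, which were picked for the size of their falls. The transcription factors of the response fell too, with 8 of 9 lower and NUPR1 higher. ATF5 was at 105 and 86.3 against 19.4 and 19.2 FPKM, DDIT3 at 87.7 and 79.8 against 27.5 and 27.6 FPKM and CEBPG at 35.8 and 30.3 against 9.8 and 9.81 FPKM. ER chaperones, the targets of the other arms of the ER stress response, had no such direction, with 6 of 15 higher and HSP90B1, PDIA6, HERPUD1 and EDEM1 lower (median log2 change 0.10).

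Enzymes of serine synthesis and most of those of the folate cycle also fell. Of 21 tested, 15 were called lower, 9 of them at least 2-fold, and 3 higher (median log2 change -0.89). PHGDH, the first enzyme of serine synthesis, fell from 266 and 253 to 86.6 and 87.4 FPKM and PSAT1, the next, from 142 and 125 to 22.3 and 24.1 FPKM. The mitochondrial folate enzymes MTHFD2 and ALDH1L2 fell from 207 and 178 to 46.4 and 48.7 FPKM and from 14.9 and 11.7 to 1.49 and 1.39 FPKM. CTH, which makes cysteine from cystathionine, fell from 51.3 and 44.6 to 3.37 and 3.69 FPKM (log2 change -3.59 ± 0.08), and PCK2, the mitochondrial PEP carboxykinase, from 38.9 and 33.1 to 3.13 and 3.59 FPKM. Among 24 amino acid transporters, 1 of them under 1 FPKM in both siNeg libraries, 13 were lower and 9 higher. The glycine transporter SLC6A9 fell from 19.5 and 18.2 to 2.7 and 2.73 FPKM and the taurine transporter SLC6A6 rose from 3 and 3.17 to 13.6 and 14.3 FPKM.

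The enzymes that charge tRNA were counted by compartment. Of 20 cytosolic aminoacyl-tRNA synthetases, 15 were called lower, 10 of them at least 2-fold, and HARS and RARS higher (median log2 change -0.95). Of 17 mitochondrial synthetases, 5 were lower, none of them at least 2-fold, and CARS2 and HARS2 higher (median log2 change -0.03). The difference between these lists was not tested. GARS, which charges glycine, fell from 214 and 185 to 49 and 49.7 FPKM (log2 change -2.0 ± 0.08), CARS, which charges cysteine, from 68.2 and 60.5 to 17.7 and 18.3 FPKM and MARS, which charges methionine, from 118 and 105 to 34.4 and 33.3 FPKM. The MARS locus overlaps DDIT3. The mitochondrial cysteine enzyme CARS2 moved the other way from CARS, from 13.6 and 15.1 to 20.2 and 21.5 FPKM (log2 change 0.53 ± 0.07).

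ATF4 and its partners bind TGATGNAA, which was in 1.57% of the 10115 promoters, in 5.36% of those from genes at least 2-fold lower and in 1.00% of those from genes at least 2-fold higher, on either strand. It was in 5 of 12 promoters of cytosolic synthetases, in 1 of 14 of mitochondrial synthetases and in 3 of 11 of the serine and one-carbon list. The promoters of ASNS (chr7:97872359-97872658) and CARS (chr11:3057374-3057673) are shown because both genes fell and both hold the motif, in capitals. They lie on the minus strand of GRCh38.p14 and are written on the gene's strand, and the first base of the motif, in the CARS promoter as its reverse complement, lies 68 and 2 bases before the start.
ASNS: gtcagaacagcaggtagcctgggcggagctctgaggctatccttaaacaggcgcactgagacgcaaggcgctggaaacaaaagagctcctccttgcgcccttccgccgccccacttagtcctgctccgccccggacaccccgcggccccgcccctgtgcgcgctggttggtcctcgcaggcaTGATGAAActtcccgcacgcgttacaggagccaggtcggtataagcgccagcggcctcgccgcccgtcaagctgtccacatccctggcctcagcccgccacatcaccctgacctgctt
CARS: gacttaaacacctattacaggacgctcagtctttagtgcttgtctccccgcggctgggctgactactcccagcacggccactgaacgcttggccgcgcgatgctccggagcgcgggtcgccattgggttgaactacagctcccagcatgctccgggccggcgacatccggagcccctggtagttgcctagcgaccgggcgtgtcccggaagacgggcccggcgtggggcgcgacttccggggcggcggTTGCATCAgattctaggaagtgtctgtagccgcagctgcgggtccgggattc

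Genes of cell division were lower, all of the mitotic kinesins among them. Of 13 mitotic kinesins, the motor proteins of the spindle, all 13 were called lower and all at least 2-fold (median log2 change -1.31). Of 19 tested kinesins with transport or other functions, 6 were lower and KIF7, KIF16B, KIF26B and KIFC2 higher (median log2 change 0.02). The 19 included 2 that were under 1 FPKM in both siNeg libraries. KIF2C, which takes microtubules apart at centromeres, fell from 131 and 130.1 to 34.2 and 30.5 FPKM (log2 change -2.0 ± 0.11, adjusted p = 1.2e-05). KIF14, a kinesin of cytokinesis, fell from 21.9 and 20.9 to 5.59 and 5.44 FPKM, and CENPE, which moves chromosomes to the spindle equator, from 25 and 22.4 to 6.5 and 6.3 FPKM. The transport motor KIF5B was also lower, at 72.9 and 64.7 against 32.7 and 34.8 FPKM, and KIF26B higher, at 0.665 and 0.577 against 4.12 and 4.56 FPKM.

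Of 55 genes of kinetochores, the spindle checkpoint and the anaphase-promoting complex, 46 were called lower, 26 of them at least 2-fold, and none higher (median log2 change -0.96). NUF2, which binds kinetochores to microtubules, fell from 89.5 and 78.3 to 25 and 19.9 FPKM, AURKB, the kinase of the chromosomal passenger complex, from 114 and 115 to 35.3 and 31.6 FPKM and CDCA8, another member of that complex, from 51.4 and 47.4 to 16.7 and 14.9 FPKM. UBE2C, the ubiquitin carrier of the anaphase-promoting complex, was at 302 and 301 against 109 and 90.6 FPKM. Among cyclins and CDKs, CDK1 fell from 132 and 120.03 to 42.7 and 41 FPKM, CCNB2 from 106 and 98.5 to 39.3 and 37.6 FPKM, the mitotic kinase PLK1 from 135 and 136 to 47.3 and 41.7 FPKM and CCND1, cyclin D1, from 309.9 and 304 to 126 and 109 FPKM. CDK4 and CDC25A were not called.

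The CDK inhibitors moved apart. CDKN1A, p21, a target of p53, rose from 5.02 and 5.24 to 75 and 83.7 FPKM (log2 change 3.82 ± 0.07, adjusted p = 3.6e-07), and CDKN1C, p57, an imprinted inhibitor, from 1.61 and 2.24 to 28.3 and 31.4 FPKM. CDKN1B and CDKN2D were lower and CDKN2C not called. Of 21 tested regulators and targets of p53, 11 were higher and GADD45A, SESN2, FAS and TNFRSF10B lower. The 21 included 2 that were under 1 FPKM in both siNeg libraries. TP53I3 rose from 1.13 and 1.06 to 7.91 and 9.72 FPKM, and SESN2, which ATF4 also drives, fell from 29.4 and 28.7 to 9.37 and 10.1 FPKM. The pro-apoptotic BCL2L11 and BMF rose, from 1.29 and 1.01 to 4.98 and 5.32 FPKM and from 20.2 and 21.7 to 49 and 52.1 FPKM, and PMAIP1 fell from 34.2 and 31.5 to 8.34 and 8.5 FPKM. BCL2 and MCL1, which hold apoptosis off, were not called.

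The sequence TTTGAA is the core of the CHR element of cell cycle promoters. It was in 9.65% of the 10115 promoters, in 25.2% of those from genes at least 2-fold lower and in 10.5% of those from genes at least 2-fold higher. It was in 9 of 13 promoters of mitotic kinesins, in 1 of 12 of the other kinesins and in 19 of 47 of the kinetochore and checkpoint list. CCAAT, which often lies upstream of it, was in 37.2% of all promoters, 49.1% of those at least 2-fold lower and 31.3% of those at least 2-fold higher. The promoters below are shown as 4 that hold TTTGAA near the start, in capitals. They are PLK1 (chr16:23678639-23678938), CCNB2 (chr15:59104896-59105195) and CDCA8 (chr1:37692266-37692565) on the plus strand and KIF14 (chr1:200620702-200621001) on the minus strand of GRCh38.p14. The motif begins 29 bases before the start in PLK1 and CCNB2 and 23 bases before it in CDCA8, and in KIF14 its reverse complement begins 1 base after the first base of the transcript.
PLK1: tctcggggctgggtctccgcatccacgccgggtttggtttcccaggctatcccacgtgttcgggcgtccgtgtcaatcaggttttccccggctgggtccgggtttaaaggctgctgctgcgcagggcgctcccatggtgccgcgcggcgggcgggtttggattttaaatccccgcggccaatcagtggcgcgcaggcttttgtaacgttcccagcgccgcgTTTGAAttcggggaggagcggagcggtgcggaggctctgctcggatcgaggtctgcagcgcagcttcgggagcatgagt
CCNB2: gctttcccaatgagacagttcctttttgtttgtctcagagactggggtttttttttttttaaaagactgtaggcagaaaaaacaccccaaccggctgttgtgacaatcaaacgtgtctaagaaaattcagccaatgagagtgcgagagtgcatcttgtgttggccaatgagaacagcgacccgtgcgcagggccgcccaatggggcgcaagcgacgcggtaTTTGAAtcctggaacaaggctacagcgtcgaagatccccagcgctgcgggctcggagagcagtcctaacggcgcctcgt
CDCA8: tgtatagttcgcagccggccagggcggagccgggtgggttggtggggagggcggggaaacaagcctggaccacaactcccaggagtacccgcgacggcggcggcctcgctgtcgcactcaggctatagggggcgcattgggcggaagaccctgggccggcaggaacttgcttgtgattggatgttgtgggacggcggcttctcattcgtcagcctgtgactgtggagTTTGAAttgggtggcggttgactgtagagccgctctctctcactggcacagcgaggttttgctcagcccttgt
KIF14: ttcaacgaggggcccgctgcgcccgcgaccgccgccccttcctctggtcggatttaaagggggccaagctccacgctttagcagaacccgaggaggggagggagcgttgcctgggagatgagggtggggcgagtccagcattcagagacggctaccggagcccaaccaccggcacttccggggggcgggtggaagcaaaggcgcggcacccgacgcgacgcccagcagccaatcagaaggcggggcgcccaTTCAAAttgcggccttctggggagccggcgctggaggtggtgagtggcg

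Most DNA replication and repair genes fell. Of 51 replication genes, 41 were called lower, 5 of them at least 2-fold, and none higher (median log2 change -0.57). Those 5 included the licensing factors CDT1, at 21.6 and 24.6 against 9.21 and 9.18 FPKM, and ORC1, at 23.3 and 23.1 against 10.4 and 9.69 FPKM, and PRIM1, the primase, at 44 and 39.7 against 16.9 and 17.7 FPKM. Of 36 tested repair genes, 31 were lower and none higher (median log2 change -0.55), with UBE2T, of the Fanconi pathway, at 132 and 117 against 53.2 and 47.9 FPKM and EXO1, a nuclease of recombination and mismatch repair, at 25.5 and 23.5 against 11.3 and 10.2 FPKM. TTTNNCGC, a short form of the E2F site, was in 23 of 44 promoters of replication genes (52.3%), beside 10.9% of all promoters, 14.5% of those from genes at least 2-fold lower and 5.56% of those at least 2-fold higher. The promoter of CDT1 (chr16:88803539-88803838, plus strand of GRCh38.p14) is shown as it holds 2 copies, in capitals and both as the reverse complement, which begin 213 and 35 bases before the start.
CDT1: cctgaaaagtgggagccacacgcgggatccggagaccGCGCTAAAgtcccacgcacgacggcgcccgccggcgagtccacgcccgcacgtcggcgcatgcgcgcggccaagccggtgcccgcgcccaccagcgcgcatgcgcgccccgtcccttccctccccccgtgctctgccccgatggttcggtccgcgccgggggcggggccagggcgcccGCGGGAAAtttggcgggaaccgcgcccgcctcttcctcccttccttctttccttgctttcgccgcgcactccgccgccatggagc

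Genes of glycolysis fell. Of 24 tested genes, 21 were called lower, 8 of them at least 2-fold, and none higher (median log2 change -0.76), and SLC2A1, PFKL and SLC16A3 were not called. ENO1, enolase, had the largest loss of FPKM of all genes in the comparison that passed the naming rule, from 1583 and 1644 to 969 and 824 FPKM (log2 change -0.85 ± 0.16, adjusted p = 0.003). ALDOC, an aldolase, fell from 43.5 and 49.5 to 13.8 and 9.42 FPKM and ENO2 from 124 and 127 to 50.7 and 43.2 FPKM. In these genes the second siFLI1 library was the lower. LDHA, lactate dehydrogenase, was at 619.7 and 638 against 349.5 and 275 FPKM (adjusted p = 0.0075), and without the second siFLI1 library its adjusted p was 0.0575. Hypoxia targets were mixed, with EPAS1, at 6.34 and 5.94 against 44.3 and 50.1 FPKM, CA12, ADM, EGLN3 and NDRG1 higher and 7 of 15 lower. With the glycolysis genes, which share their list, 28 of 39 were lower, and 23 with no filter on low values. Fewer than 28 were lower with any 1 siNeg or siFLI1 library left out. Of 74 respiratory chain subunits, 34 were lower, none of them at least 2-fold, and NDUFB2, UQCR10 and UQCR11 higher. That count of 34 was 19 to 22 when either siNeg library or the second siFLI1 library was left out, and 21 after quantile normalization, and UQCR11 was not called when any 1 of the 4 libraries was left out (adjusted p = 0.0584 to 0.142, limma). SDHB, of complex II, fell from 128 and 126 to 78.7 and 77.3 FPKM.

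Lipid synthesis fell in part, with 21 of 37 tested genes lower and 4 higher. ME1, malic enzyme, fell from 26.3 and 25.5 to 9.83 and 10.2 FPKM and FADS1, a fatty acid desaturase, from 117 and 117 to 55.7 and 52.7 FPKM. Among 36 translation initiation factors 19 were lower and 6 higher. With the proteasome subunits, which share their list, 8 of 68 were higher, and 4 without siNeg 1, siNeg 2 or siFLI1 2. EIF4EBP1, an inhibitor of cap-dependent translation that ATF4 drives, fell from 144 and 133 to 44.1 and 42.8 FPKM. Of 37 glutathione and redox genes, 1 of them under 1 FPKM in both siNeg libraries, 12 were higher and 17 lower. HMOX1, haem oxygenase, rose from 2.41 and 2.45 to 11.1 and 12.5 FPKM, and GPX3, a secreted glutathione peroxidase, from 0.327 and 0.282 to 18.7 and 20.8 FPKM.

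HOX genes, which pattern the body axis, lie in clusters. None of the 11 HOXA genes in the files reached the level limit. Of 7 tested HOXD genes, 6 were lower, 4 of them at least 2-fold (median log2 change -1.29), with HOXD13, the most 5′ gene of the cluster, at 38.5 and 35.8 against 14.6 and 13.7 FPKM and HOXD4 at 36.9 and 41.9 against 13.5 and 10.3 FPKM. Of 9 HOXB and 9 HOXC genes, 4 were lower in each cluster, and HOXB3, HOXB13, HOXC4 and HOXC6 were higher. The call of HOXC6 was lost under both scalings and without siNeg 1, siFLI1 1 or siFLI1 2 (adjusted p = 0.0582 to 0.221, limma). HOXC4 rose from 1.24 and 1.09 to 2.73 and 2.55 FPKM. Genes of the Polycomb, BAF and NuRD chromatin complexes had no common direction, with 17 of 56 higher and 22 lower, 1 of them at least 2-fold, and 11 to 15 higher and 12 to 15 lower with 1 library left out. That gene was EZH2, the Polycomb methyltransferase, which fell from 43.4 and 43.2 to 19.8 and 19.5 FPKM (log2 change -1.12 ± 0.07). RING1 rose from 18.8 and 18.8 to 30.4 and 31.7 FPKM.

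**Figure D3:**
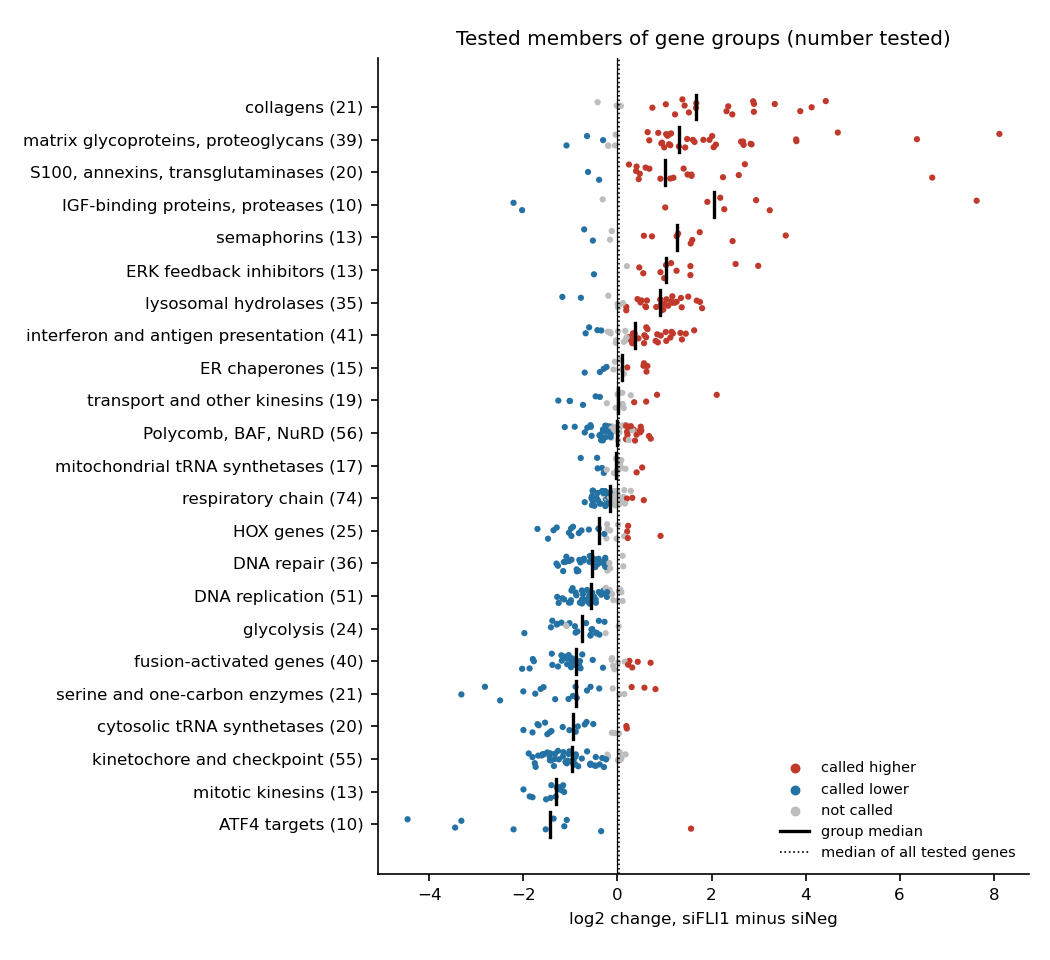
Log2 change, siFLI1 minus siNeg on the log2(FPKM + 0.5) scale (horizontal axis), of each tested member of 23 gene groups (points, red for called higher, blue for called lower, grey for not called), with the median of each group as a bar and the median of all 12879 genes as a dotted line. Collagens lie to the right, with a median of 1.68, mitotic kinesins wholly to the left, with a median of -1.31, and Polycomb, BAF and NuRD genes on both sides of 0.

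The siFLI1 cells were then set against the siEWSR1 cells directly, in the same fit. 484 of the 12879 genes were higher in the siFLI1 cells (3.76%) and 127 lower (0.986%), and 28 and 4 of these differed at least 2-fold. The unadjusted p was under 0.05 for 3042 genes. The number of genes called at the adjusted threshold fell sharply when either siFLI1 library was left out. It fell less when either siNeg library was left out, which leaves fewer residual degrees of freedom for the shared spread. The siEWSR1 libraries were not left out in turn, so how far the count rests on them was not tested. After quantile normalization the genes split into 361 higher and 229 lower. The comparison of siEWSR1 with siNeg uses the same siNeg libraries, so values are given side by side for each gene.

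The genes higher than in siEWSR1 cells were of several kinds. KRT15 was at 55.4 and 56.1 FPKM with siFLI1 and 19.957 and 24.9 FPKM with siEWSR1 (log2 difference 1.30 ± 0.11, adjusted p = 0.0042), PLAT at 6.19 and 6.75 against 1.96 and 2.63 FPKM and ALDH1A3, an enzyme of retinoic acid synthesis, at 9.02 and 10.2 against 3.69 and 3.97 FPKM. LOXL1, a cross-linker of elastin, was at 37.5 and 37.7 against 17.1 and 14.2 FPKM, and 7.9 and 10.5 FPKM in the siNeg libraries. GNG12, a G protein subunit, was at 9.01 and 11.2 FPKM with siFLI1, 3.89 and 4.61 with siEWSR1 and 4.67 and 3.84 with siNeg. CDKN1A, at 75 and 83.7 against 43.3 and 44.9 FPKM (log2 difference 0.84 ± 0.07, adjusted p = 0.0042), and TPM1, at 94.9 and 95.4 against 56.3 and 59.3 FPKM (log2 difference 0.71 ± 0.05, adjusted p = 0.0034), were higher as well. Of the 20 tested S100, annexin and transglutaminase genes, 10 were called in this contrast, all of them higher with siFLI1, among them S100A4 at 53.1 and 50.1 against 29 and 28 FPKM.

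Genes lower in siFLI1 than in siEWSR1 cells included CXCL12, at 71.3 and 84.4 against 113 and 142 FPKM (log2 difference -0.71 ± 0.12, adjusted p = 0.033), the zinc exporter SLC30A1, at 2.91 and 4.01 against 5.83 and 6.05 FPKM, and the metallothionein MT1F, at 21.2 and 23.1 against 34.7 and 39.3 FPKM. All 3 were higher than in siNeg cells in both. WWC2 was lowest with siFLI1, at 3.49 and 3.12 FPKM, beside 5.65 and 5.35 FPKM with siEWSR1 and 10.1 and 9.33 FPKM with siNeg. Genes from 3 of the groups that fell against siNeg were also compared. ASNS was at 20.5 and 17.8 FPKM with siEWSR1 (log2 difference from siFLI1 0.04 ± 0.12), KIF2C at 35.8 and 28.7 FPKM (log2 difference 0.01 ± 0.11) and NR0B1 at 78 and 47 FPKM (log2 difference 0.04 ± 0.22), and none of these differences passed the threshold. None of the 32 tested kinesins and none of the 37 aminoacyl-tRNA synthetases was called in this contrast. Of all tested genes, 3.76% were called higher in it and 0.986% lower. At these shares few calls would fall in groups of this size, so their absence does not show that both siRNAs acted alike.

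**Figure D4:**
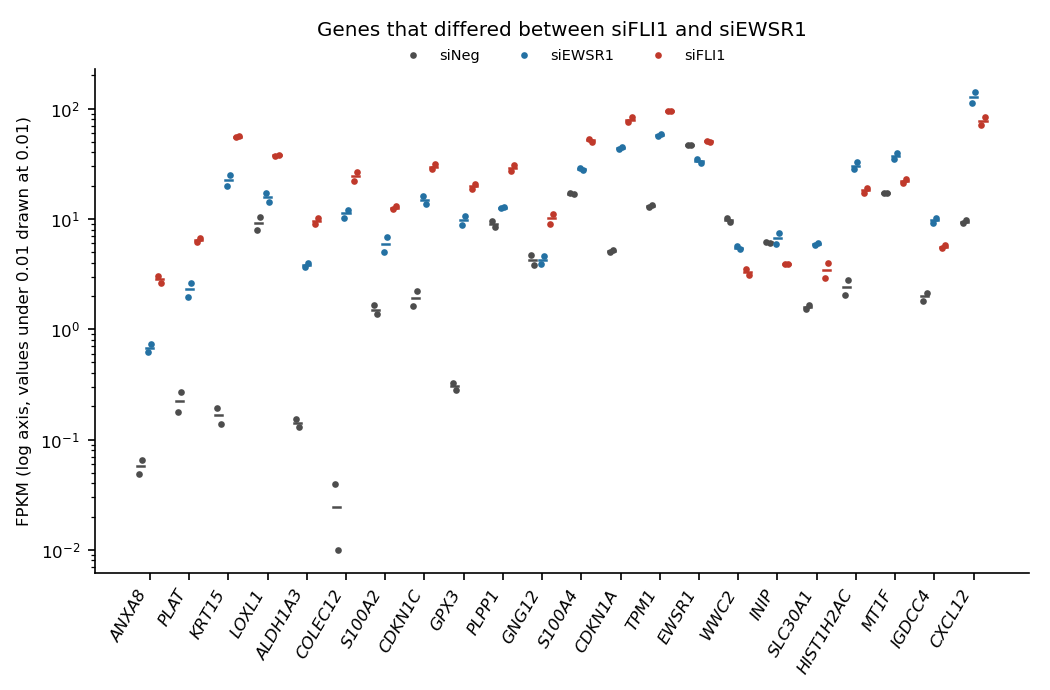
FPKM (vertical log axis, values under 0.01 drawn at 0.01) of 22 named genes called in the direct contrast, in the siNeg (dark), siEWSR1 (blue) and siFLI1 (red) libraries, 2 of each, with a dash at the group mean. For KRT15 and CDKN1A the siFLI1 libraries lie above the siEWSR1 libraries, which lie above the siNeg libraries, and for CXCL12 the siEWSR1 libraries lie highest.

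The counting is not stated to use strand, so the values of genes that overlap others are uncertain. Among the genes given with values, ALDH1A3 overlaps LOC101927751, ATF5 overlaps IL4I1 and NUP62, BGN overlaps HAUS7, CEBPB overlaps CEBPB-AS1, COL5A1 overlaps LOC101448202, DDIT3 overlaps MARS, ENO1 overlaps ENO1-AS1, FADS1 overlaps FADS2, GNG12 overlaps GNG12-AS1, HOXC4 overlaps HOXC5 and HOXC6, IGF1R overlaps IRAIN, ITGB2 overlaps ITGB2-AS1, LAMA4 overlaps LOC101927640, LOXL1 overlaps LOXL1-AS1, LOXL2 overlaps LOC100507156, MFAP4 overlaps MAPK7, MKL1 overlaps LOC101927257 and SGSM3, PAPPA overlaps PAPPA-AS1, PLAU overlaps C10orf55, PLK1 overlaps ERN2, S100A4 overlaps LOC101928034, SLC6A6 overlaps GRIP2, SLC6A9 overlaps CCDC24, TAGLN overlaps LOC100652768, TGFB2 overlaps TGFB2-AS1 and TGFB2-OT1, TIMP3 overlaps SYN3, TP53I3 overlaps FAM228B, WWC2 overlaps CLDN22 and WWC2-AS1. COL3A1, COL7A1, DCC, KRT15, LFNG, MEG3 and TCF7L2 hold a microRNA or small nucleolar RNA gene. The sources used here do not say how reads that match near-identical copies were shared out, which leaves the values of ACTB, ENO1, LDHA, MT1F and other members of close families uncertain.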

How the data were processed

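Gene-level FPKM values were deposited by the authors, with 1 table per library. TopHat2 2.0.13, Cufflinks, Cuffdiff and the build hg19 are named in the submitters' processing notes, and the annotation, the strand setting and the treatment of reads with several matches are named in none of the sources used here. Each table held 27442 rows, and rows with the same symbol (380 of 26931 symbols) were summed. FPKM had no recoverable whole reads (40.9% to 43.5% of low values came out whole within 0.01), so no count test was run. Coordinates are those of the tables.

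The test was limma's (version 3.58.1, R 4.3.3, two-sided) on log2(FPKM + 0.5), in 1 fit over all 6 libraries with a variance trend (3 residual and 3.71 prior degrees of freedom). Genes needed 1 FPKM or more in at least 2 of the 4 siNeg and siFLI1 libraries, and p-values were adjusted by Benjamini-Hochberg over all 12879. With 2 libraries a group, an exact permutation test cannot reach 0.05. On simulated data for siFLI1 against siNeg with 12879 genes, the fit called 38% of 50 genes changed 1.25-fold, 92% of 50 changed 1.5-fold and all of those changed 2-fold or 4-fold, with 4 false among 169 calls. In that simulation the spread of a gene depended on its level alone, the noise was independent and few genes changed. The data differ in these points, so the rates may be too favourable for them.

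The comparison, the gene lists and the tests were chosen with earlier results of these data known. Genes were named by rule. The rule took FLI1 and EWSR1, the 15 highest and 15 lowest log2 changes among called genes with a mean of 5 FPKM or more in the higher group, the 10 largest gains and losses of FPKM, genes under 0.1 FPKM in one group and over 5 in the other, and the 10 highest and 10 lowest differences from siEWSR1. The ranked changes, gains and losses against siNeg were taken among genes whose siFLI1 and siNeg libraries did not overlap. Per role of a list the rule took the 3 largest changes and up to 2 called members that moved against the majority. Members named without values to complete a small count, and cell type markers, were named after their values were seen. Promoters are from RefSeq (GRCh38.p14), where 12674 of the 12879 symbols matched and 10115 had a promoter. Alternatives were other pseudocounts, filters, normalizations, variance models, a replicate block and leaving out each siNeg or siFLI1 library in turn. A few named genes are not reported here.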

Additional observations from a re-analysis of the deposited data

How the results depend on the processing

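Of 383 named genes, 364 kept their direction and side of the threshold under all 15 alternatives. KRT14, called higher, reversed to a log2 change of -0.12 after quantile normalization (adjusted p = 0.372), and EWSR1 passed the threshold there at 0.203 (adjusted p = 0.0106). The 4618 genes called higher became 2709, and the 1198 at least 2-fold higher became 510, when a mean of 5 FPKM was required, which leaves fewer genes. Leaving out 1 library gave 3766 to 4056 genes higher and 3038 to 3299 lower, and a log2 change of FLI1 between -0.33 and -0.26 (adjusted p = 0.0143 to 0.0305). Quantile normalization gave 3921 higher and 4469 lower in place of 4618 and 3877. The 611 genes that differed from siEWSR1 were 74 with no filter and 405 with a mean of 5 FPKM, and 3 to 177 with 1 library left out, where an arm of 1 library is assumed to vary like the others; the cause was not tested. The median of the chromatin list (-0.01) moved to 0.00 with the stricter filter and without the first siFLI1 library. Quantile normalization also moved the split of higher and lower genes in the IGF axis (9 and 3 to 9 and 6), the proteases and inhibitors (18 and 4 to 18 and 8), the HOX genes (4 and 14 to 2 and 16) and the respiratory chain (3 and 34 to 9 and 21). Deviations of same-numbered siNeg and siFLI1 libraries from their group means had an r of -0.08 across genes. It was 0.32 for siEWSR1 with siFLI1 and -0.27 for siNeg with siEWSR1. Each r rests on 2 numbers only, so whether the numbers pair the libraries cannot be told from it. A fit with the replicate block called 4518 genes higher and 3810 lower (1200 and 601 at least 2-fold), and 413 against siEWSR1.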
